A study of Mus musculus with 15 samples.

Results

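Alpha-arrestins are a family of adaptor proteins, and 5 of their mouse genes were followed here: Txnip, Arrdc1, Arrdc2, Arrdc3 and Arrdc4. They were taken by gene symbol from the union of the 4 deposited tables, which holds 11551 genes, and 4 of the 5 have values there. Arrdc4 was not analysed here. The family was chosen by its measured levels in all 5 groups, above all the high Txnip and Arrdc3 in Rag -/- cells without doxycycline, with results of all 4 comparisons known. Its values are therefore given as descriptions, with standard errors and without a test, and tests are given for other genes only. The lists of those other genes were also chosen with earlier results of these data known, so their p-values and counts are not free of that choice.

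Alpha-arrestins share the arrestin fold with the visual and beta-arrestins, and most carry PPxY motifs that bind ubiquitin ligases of the NEDD4 family, through which membrane receptors and transporters are marked for endocytosis. TXNIP also binds thioredoxin, the small redox protein, and promotes the internalisation of glucose transporters. Its gene is a classical target of the sugar-responsive transcription factors MondoA (Mlxip) and ChREBP (Mlxipl), which act with the partner MLX. In B-cell progenitors TXNIP is known as a brake on glucose uptake.

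RNA was sequenced in 15 libraries of Abelson cells, mouse pre-B cells transformed by the v-Abl kinase, at passages given as 10 to15. Imatinib, which blocks that kinase, was given to every group for 48 h, controls included. There were 5 groups of 3 libraries. Art_shBCLAF1 and Art are Art -/- cells (deficient in Artemis, a nuclease that opens the hairpin ends left by the RAG recombinase), with and without a short hairpin RNA labelled shBCLAF1. Rag_SPIC_DOX_shBCLAF1, Rag_SPIC_DOX and Rag_SPIC_noDOX are Rag -/- cells with a tetracycline-regulated construct for the transcription factor SPIC. The first has doxycycline and the shBCLAF1 label, the second doxycycline alone, and the third neither. No label names a control hairpin, a doxycycline control without the construct, or the number of independent lines. Nothing says that libraries of a group came from separate cultures, so the p-values cover only the spread among these libraries.

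The libraries held 17.2 to 27.1 M reads by effective size, apart from Art replicate 3 with 5.81 M reads. That library had 145 genes at 0 reads, against 19 to 56 in the others, and differed from its group mates by a root-mean-square of 0.946 log2 units on average. Rag_SPIC_DOX replicate 2 was the next most distant at 0.706, so results that rest on these 2 libraries are given with and without them. All 12 B-lineage markers were measured, with summed levels of 5603 to 12740 CPM (reads of a gene scaled to a common library total) in single libraries. The myeloid list had 8 of 12 genes measured, with 40.04 to 913.0 CPM in sum, the T-cell and NK list 4 of 12, and the erythroid and megakaryocyte list 3 of 12. No measured marker was at 0 reads throughout a group. Bclaf1 averaged 8.32 ± 0.03 log2 CPM (SD, n = 3) in Art_shBCLAF1 and 7.32 ± 0.79 in Art. It averaged 8.04 ± 0.06 in Rag_SPIC_DOX_shBCLAF1, 7.73 ± 0.04 in Rag_SPIC_DOX and 7.70 ± 0.07 in Rag_SPIC_noDOX. The gene the hairpin is named for was thus higher on average where the hairpin is labelled, and directions drawn from those libraries are directions of the label alone. Spic averaged 4.54 log2 CPM in Art_shBCLAF1, 0.44 in Art, 7.46 in Rag_SPIC_DOX_shBCLAF1, 4.21 in Rag_SPIC_DOX and 0.82 in Rag_SPIC_noDOX, so it was high in both groups with the hairpin label as well as with doxycycline.

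Txnip (ENSMUSG00000038393; GRCm38, chr3:96557957-96561883, plus strand) was the most abundant of the alpha-arrestins per length. Its level was 7.69, 7.65 and 7.69 log2 CPM in Art_shBCLAF1 and 7.72, 7.74 and 7.62 in Art. It was 7.50, 7.49 and 7.44 in Rag_SPIC_DOX_shBCLAF1, 7.89, 7.40 and 7.65 in Rag_SPIC_DOX, and 8.93, 8.77 and 8.82 in Rag_SPIC_noDOX. The 3 Rag_SPIC_noDOX libraries stood above the 12 others, which lay together, and Rag_SPIC_DOX was the most scattered group with an SD of 0.25. In linear terms Txnip averaged 204.9 CPM in Art_shBCLAF1, 206.9 in Art, 177.9 in Rag_SPIC_DOX_shBCLAF1, 202.1 in Rag_SPIC_DOX and 458.6 in Rag_SPIC_noDOX. These values rest on 1145 to 8662 reads per library. Divided by exon length, the level of Txnip lay at percentile 98.8 of all genes in Rag_SPIC_noDOX and at 93.6 to 95.4 in the other 4 groups. Between neighbours in the order of means, only the step from Rag_SPIC_noDOX to the next group, Art, was free of overlap, and the neighbours below it overlapped in range. Groups further apart in that order could still be separate. Rag_SPIC_DOX_shBCLAF1 (highest 7.50) lay below Art_shBCLAF1 (lowest 7.65) and Art (lowest 7.62) without overlap. Gm15441 overlaps Txnip on the opposite strand and, since no source says whether the counting used strand, its reads cannot be told apart from those of Txnip. In bulk samples, fewer cells that express a gene and less RNA per cell cannot be told apart.

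Arrdc3 (ENSMUSG00000074794; GRCm38, chr13:80883384-80896042, plus strand) encodes an alpha-arrestin known for the ubiquitination and trafficking of the beta-2 adrenergic receptor. Its level was 4.26, 4.25 and 4.22 log2 CPM in Art_shBCLAF1 and 4.64, 4.82 and 4.25 in Art. It was 4.05, 4.08 and 4.24 in Rag_SPIC_DOX_shBCLAF1, 4.43, 4.62 and 4.51 in Rag_SPIC_DOX, and 6.41, 6.41 and 6.5 in Rag_SPIC_noDOX. Again the Rag_SPIC_noDOX libraries stood clear of all others, and below them Art and Rag_SPIC_DOX overlapped, as did Art_shBCLAF1 and Rag_SPIC_DOX_shBCLAF1. The second pair lay under Rag_SPIC_DOX by a gap of 0.17 log2 units between Rag_SPIC_DOX and Art_shBCLAF1. The means were 18.9 CPM in Art_shBCLAF1, 24.1 in Art, 17.5 in Rag_SPIC_DOX_shBCLAF1, 23.0 in Rag_SPIC_DOX and 86.8 in Rag_SPIC_noDOX. The lowest read number, 110, was that of Art replicate 3, and the highest was 1610. Per length Arrdc3 lay at percentile 66.8 in Rag_SPIC_noDOX and at 26.5 to 33.7 elsewhere. Its opposite strand carries 1700023H06Rik, with the same limit as for Txnip.

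The sequences before the start sites of Txnip and Arrdc3 are shown because both genes were highest in Rag_SPIC_noDOX, so that their promoters can be read side by side. Each run is the 250 bases before the start, 5′ to 3′ on the plus strand, from RefSeq on GRCm38.p6. All 4 alpha-arrestins with values matched that table, and of the 3 start sites it gives for Arrdc3 the first listed is shown. Capitals mark the motif matches described after them.
Txnip, chr3:96557707-96557956: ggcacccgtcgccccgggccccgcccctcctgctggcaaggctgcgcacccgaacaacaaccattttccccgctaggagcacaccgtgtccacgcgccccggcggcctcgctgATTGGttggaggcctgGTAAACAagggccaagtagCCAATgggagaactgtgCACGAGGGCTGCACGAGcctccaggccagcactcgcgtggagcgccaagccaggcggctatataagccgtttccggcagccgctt
Arrdc3, chr13:80883134-80883383: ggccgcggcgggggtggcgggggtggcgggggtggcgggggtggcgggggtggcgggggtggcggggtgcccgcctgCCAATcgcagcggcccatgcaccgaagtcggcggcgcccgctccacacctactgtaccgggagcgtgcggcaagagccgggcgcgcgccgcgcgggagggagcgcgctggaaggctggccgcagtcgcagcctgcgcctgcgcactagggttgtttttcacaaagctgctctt
The 300 bases around each start (250 before, 50 after) were searched on both strands in all 32851 RefSeq promoters. The pair of imperfect E-boxes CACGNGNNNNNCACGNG, written after the known carbohydrate response element of Txnip, matched Txnip at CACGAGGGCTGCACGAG, 85 bases before the start, and was found in 0.0487% of promoters. The FOXO-type site GTAAACA matched Txnip 121 bases before the start and was found in 3.65% of promoters. CCAAT boxes (CCAAT) lay 137 and 102 bases before the Txnip start and 173 bases before the Arrdc3 start, and 37.4% of promoters held at least 1. None of the motifs overlapped in these runs. The perfect E-box CACGTG (7.15% of promoters) and the PU.1-type ETS site GAGGAAGT (3.2%) matched in none of the windows of the 4 genes. The first 2 motifs matched in none of the windows of Arrdc3, Arrdc1 or Arrdc2, whereas Arrdc2 held 3 CCAAT boxes and Arrdc1 none. These matches describe letters in a window and do not show binding.

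Arrdc1 (ENSMUSG00000026972; GRCm38, chr2:24925352-24935252, minus strand) encodes the alpha-arrestin that recruits TSG101 to the plasma membrane for the budding of small vesicles. Its level was 6.25, 6.29 and 6.29 log2 CPM in Art_shBCLAF1 and 6.90, 6.95 and 7.48 in Art. It was 6.34, 6.31 and 6.27 in Rag_SPIC_DOX_shBCLAF1, 6.68, 6.78 and 6.60 in Rag_SPIC_DOX, and 6.93, 6.83 and 6.83 in Rag_SPIC_noDOX. The order differed from that of Txnip and Arrdc3, since Art overlapped Rag_SPIC_noDOX at the top and the 2 groups labelled shBCLAF1 overlapped at the bottom. Rag_SPIC_DOX lay between them, 0.05 log2 units under the lowest Rag_SPIC_noDOX library and 0.25 above the highest Rag_SPIC_DOX_shBCLAF1 library. Per length Arrdc1 lay between percentiles 84.2 and 93.7.

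Arrdc2 (ENSMUSG00000002910; GRCm38, chr8:70835129-70839720, minus strand), a less studied relative, was at 3.99, 4.20 and 4.06 log2 CPM in Art_shBCLAF1 and at 4.34, 4.21 and 5.73 in Art. It was at 3.95, 3.84 and 3.84 in Rag_SPIC_DOX_shBCLAF1, 3.73, 4.0 and 3.89 in Rag_SPIC_DOX, and 4.34, 4.07 and 4.14 in Rag_SPIC_noDOX. Art replicate 3, the shallow library, was far above its 2 group mates and held 308 reads of the gene. The 2 Rag groups with doxycycline overlapped at the bottom. Above them in the order of means, Art_shBCLAF1 lay 0.04 log2 units over Rag_SPIC_DOX_shBCLAF1 without overlap. However, Art_shBCLAF1 (lowest 3.992) just overlapped with Rag_SPIC_DOX (highest 3.997). It also overlapped with Rag_SPIC_noDOX, and Rag_SPIC_noDOX with Art. Per length Arrdc2 lay between percentiles 34.8 and 52.6.

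**Figure D1:**
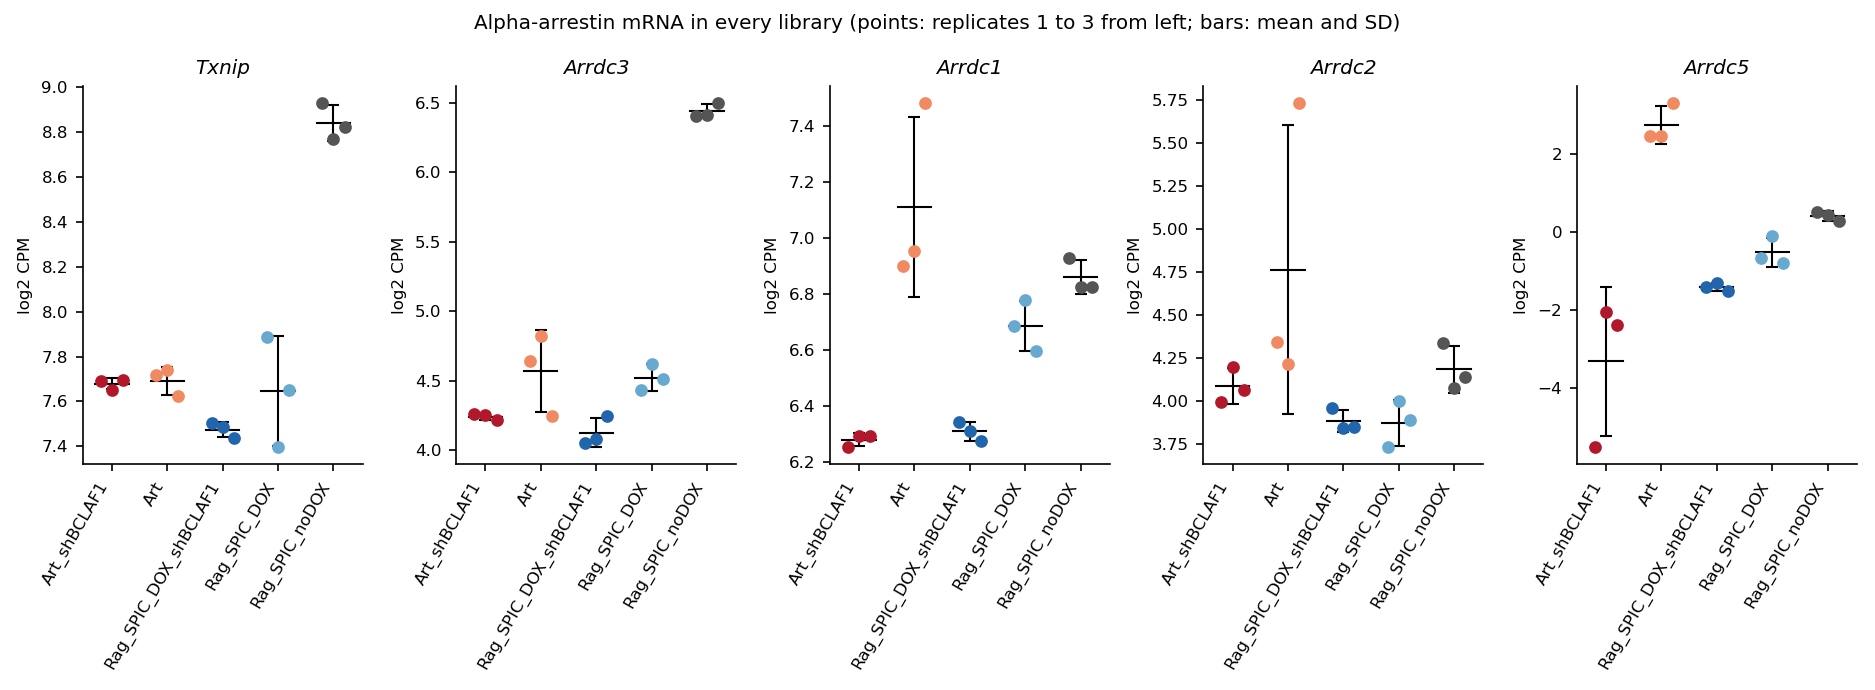
Levels of the 4 alpha-arrestins with values, and of the related gene Arrdc5, in log2 CPM on separate vertical axes; each point is a library of one of the 5 groups on the horizontal axis, and bars give the mean and SD. Txnip and Arrdc3 are highest in the 3 Rag_SPIC_noDOX libraries (lowest 8.77 and 6.41), and Art replicate 3 is the highest library for Arrdc1 (7.48) and Arrdc2 (5.73).

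The distance between Rag_SPIC_noDOX and everything else was measured for each gene as its lowest Rag_SPIC_noDOX library minus its highest of the 12 other libraries. Arrdc3 had the widest such gap of all 11551 genes, at 1.58 log2 units, and Txnip was at position 7 with 0.88. Over all genes, 3.46% had a gap above 0, and 0.0433% had a gap of at least 1, which is 5 genes. Between Arrdc3 and Txnip came Scn3a (1.41), Dnajc22 (1.32), Hist1h1b (1.28), Cntd1 (1.03) and Rab11fip5 (0.99), and Msh5 followed with 0.87. Of these 8 genes only Txnip was above the median expression of all genes. Arrdc1 (-0.65, position 5319) and Arrdc2 (-1.66, position 9940) had no gap of this kind. Without Art replicate 3 and Rag_SPIC_DOX replicate 2, the gaps of Arrdc3 and Txnip were the same size at positions 3 and 15, and 826 genes had a gap above 0. Since the pair was proposed for this pattern, the positions describe it and do not test it.

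**Figure D2:**
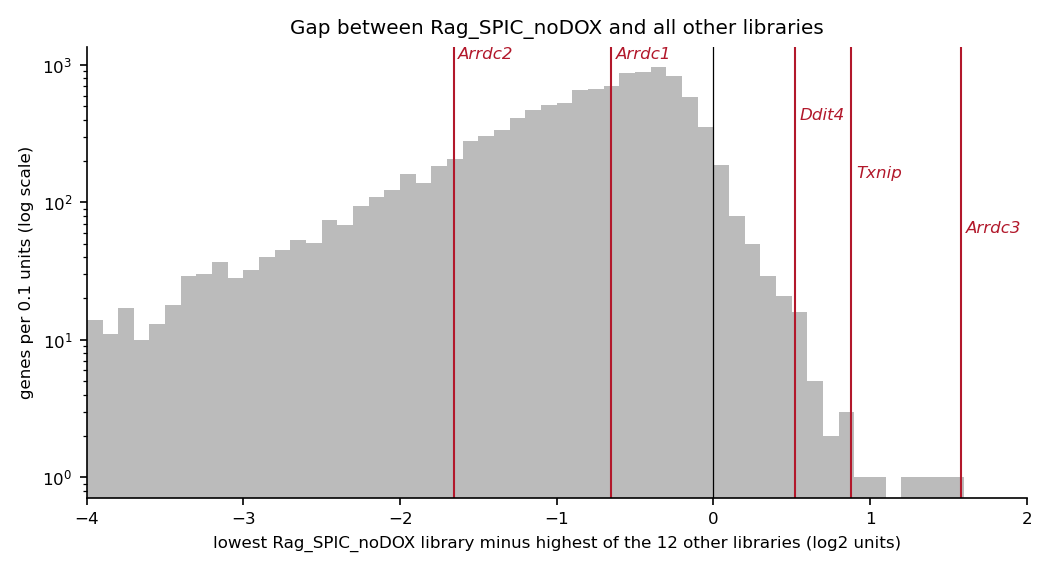
Histogram of the gap for all genes in bins of 0.1 log2 units, with the number of genes on a log scale; red lines mark Arrdc2, Arrdc1, Ddit4, Txnip and Arrdc3, and 157 genes below -4 lie outside the plotted range. Arrdc3 (1.58) and Txnip (0.88) lie in the thin right tail, and Arrdc1 and Arrdc2 lie left of 0.

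Art against Rag_SPIC_noDOX sets cells in which RAG breaks are made and left unrepaired against cells that cannot make them, although the lines differ in more than that genotype. Txnip was 2.22-fold lower in Art (log2 difference -1.15, SE 0.10) and Arrdc3 3.65-fold lower (-1.87, SE 0.17). Arrdc1 (0.25, SE 0.18) and Arrdc2 (0.58, SE 0.41) were higher in the mean with overlapping groups, and without Art replicate 3 their differences were 0.07 and 0.10. Thus 2 of 4 alpha-arrestins, Txnip and Arrdc3, were lower without overlap, as were 19.4% of all genes, and 0 of 4 were higher without overlap, against 18.4%. Without Art replicate 3 the same 2 were lower (-1.11 and -1.71), with 32.9% of all genes lower without overlap. The summed myeloid markers were at 684.8 to 913.0 CPM in Art and 294.5 to 310.1 in Rag_SPIC_noDOX, and the summed T-cell and NK markers at 150.7 to 164.1 in Art and 93.85 to 96.73 in Rag_SPIC_noDOX. The myeloid sum and its single genes differed in direction, since 1 of 8 was higher and 2 were lower in limma, with a median of -0.44 (1 and 5 without Art replicate 3). Of the 4 T-cell and NK genes 2 were higher and 0 lower. The summed B-lineage markers were at 12290 to 12740 CPM in Art and 10000 to 10630 in Rag_SPIC_noDOX. In limma 1 of 12 B-lineage genes was higher and 0 were lower. Without Art replicate 3, 8 were higher and 2 lower, beside 23.2% and 24.2% of all genes. The part of these markers in the differences was not tested.

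Rag_SPIC_DOX against Rag_SPIC_noDOX asks what doxycycline-induced SPIC does, with doxycycline itself not separated. Txnip was 2.29-fold lower with doxycycline (log2 difference -1.19, SE 0.13) and Arrdc3 3.78-fold lower (-1.92, SE 0.08). Arrdc1 (-0.17, SE 0.07) and Arrdc2 (-0.31, SE 0.12) were lower by much less, and for all 4 genes the groups did not overlap. Lower values without overlap were found for 22.7% of all genes and higher ones for 18.0%. Leaving out Rag_SPIC_DOX replicate 2 gave -1.07 for Txnip and -1.97 for Arrdc3, and all 4 were still lower without overlap, as were 32.5% of all genes. This comparison and the one before it share the Rag_SPIC_noDOX libraries, so the likeness of their values for Txnip (-1.15 and -1.19) and Arrdc3 (-1.87 and -1.92) is not a repeat of one result by another. The summed myeloid markers were at 208.5 to 272.6 CPM in Rag_SPIC_DOX and 294.5 to 310.1 in Rag_SPIC_noDOX, although 1 of the 8 genes was higher and 0 were lower in limma, with a median of 0.29 (4 and 1 without Rag_SPIC_DOX replicate 2). The summed T-cell and NK markers were at 67.89 to 74.88 CPM in Rag_SPIC_DOX and 93.85 to 96.73 in Rag_SPIC_noDOX, with 0 of 4 higher and 2 lower. The part of both lists was not tested.

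Rag_SPIC_DOX_shBCLAF1 against Rag_SPIC_DOX gives the hairpin label in Rag cells. Arrdc3 was 1.32-fold lower (log2 difference -0.40, SE 0.09) and Arrdc1 1.30-fold lower (-0.38, SE 0.07) in Rag_SPIC_DOX_shBCLAF1, both without overlap. Txnip (-0.17, SE 0.12) and Arrdc2 (0.01, SE 0.10) overlapped between the groups. The count of 2 of 4 lower and 0 of 4 higher compares with 30.6% and 35.5% of all genes, so it is near the background. Without Rag_SPIC_DOX replicate 2, Txnip (-0.29) was also free of overlap, so that 3 of 4 were lower, beside 34.1% of all genes. The comparison shares the Rag_SPIC_DOX libraries with the one before it.

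Art_shBCLAF1 against Art gives the same label in Art cells, with the Art libraries shared with the first comparison. Arrdc1 was 1.78-fold lower in Art_shBCLAF1 (log2 difference -0.83, SE 0.18) and Arrdc2 1.60-fold lower (-0.68, SE 0.40), each without overlap. Both sizes leaned on Art replicate 3, and without it they were -0.65 and -0.19. Txnip differed by -0.01 (SE 0.10) and Arrdc3 by -0.33 (SE 0.18), with overlap. The 2 of 4 lower and 0 of 4 higher stand beside 31.7% and 33.9% of all genes, and without Art replicate 3 all 4 were lower without overlap, as were 43.7% of all genes. In the same comparison the summed myeloid markers were at 40.04 to 56.08 CPM in Art_shBCLAF1 and at 684.8 to 913.0 in Art, and the summed B-lineage markers at 5603 to 6290 in Art_shBCLAF1 and 12290 to 12740 in Art. Of the myeloid genes 1 of 8 was higher and 3 lower, with a median of -0.74, and of the B-lineage genes 0 of 12 were higher and 8 lower. Their part in these differences was not tested.

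The effect of the label in Art cells minus that in Rag_SPIC_DOX cells was 0.16 (SE 0.16) for Txnip, 0.07 (SE 0.20) for Arrdc3, -0.45 (SE 0.19) for Arrdc1 and -0.69 (SE 0.45) for Arrdc2. Without Art replicate 3 the last 2 were -0.27 and -0.20. The medians of the libraries were higher by 0.23 log2 units in Art_shBCLAF1 than in Art, and by 0.10 in Rag_SPIC_DOX_shBCLAF1 than in Rag_SPIC_DOX. With libraries centred on their medians, the differences in Art cells were -0.24 for Txnip, -0.56 for Arrdc3, -1.06 for Arrdc1 and -0.91 for Arrdc2. In Rag cells they were -0.27 for Txnip, -0.50 for Arrdc3, -0.48 for Arrdc1 and -0.09 for Arrdc2, the last with a turned sign.

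**Figure D3:**
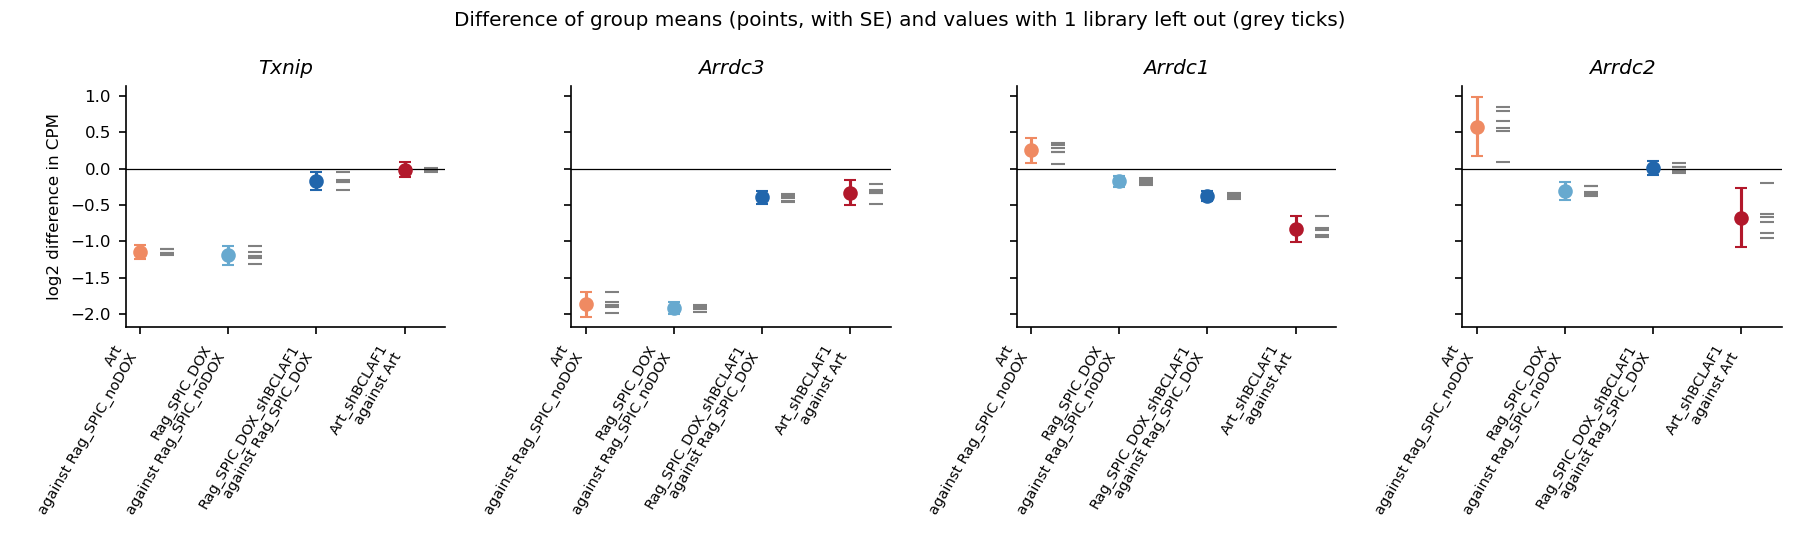
Log2 difference between group means of 4 alpha-arrestins in the 4 comparisons named on the horizontal axis, with SE bars; grey ticks are the values with 1 library left out. Txnip and Arrdc3 lie near -1.15 and -1.87 in Art against Rag_SPIC_noDOX and at -1.19 and -1.92 with doxycycline, and the ticks of Arrdc2 are the most spread.

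Arrestin-fold relatives outside the 5 genes were tested in limma, as were the lists that follow, with a gene taken as changed at a Benjamini-Hochberg adjusted p below 0.05 over all 11551 genes. Arrdc5 (ENSMUSG00000073380), a sixth alpha-arrestin gene, had the widest range of the family. It had 0, 4 and 3 reads in Art_shBCLAF1 and 143, 95 and 57 in Art. It had 8, 10 and 9 in Rag_SPIC_DOX_shBCLAF1, 14, 20 and 12 in Rag_SPIC_DOX, and 25, 24 and 21 in Rag_SPIC_noDOX. Scaled to library size, the shallow Art replicate 3 was the highest Art library at 9.89 CPM, and the lowest was at 5.54. Art was the highest group and Art_shBCLAF1 the lowest, without overlap between any neighbours in the order. Arrdc5 rose 5.06-fold in Art against Rag_SPIC_noDOX (adjusted p = 0.0138 in limma, lost without any one library but Art replicate 3, at 0.0608 to 0.116) and fell in Art_shBCLAF1 against Art (adjusted p = 0.00275 in limma). The rise was 2.34 log2 units (SE 0.28), and 2.06 (SE 0.21) without Art replicate 3. Over the pooled reads, 7 in Art_shBCLAF1 and 295 in Art, the rate in Art was 51.7 times that in Art_shBCLAF1, with an exact 95% interval of 24.8 to 130.0 that covers counting error only. It fell by 0.89 log2 units in Rag_SPIC_DOX_shBCLAF1 (SE 0.28, adjusted p = 0.0371 in limma), and this call was lost without any one of 5 of the 6 libraries (adjusted p = 0.0556 to 0.11). Of 7 relatives measured, 1 rose and 0 fell in Art against Rag_SPIC_noDOX, where 2.58% of all genes rose and 2.56% fell. Without Art replicate 3 the numbers were 3 and 3, beside 23.2% and 24.2% of all genes in that fit. With doxycycline 1 rose, Vps26a of the retromer (0.39, SE 0.10), and 0 fell, beside 3.16% and 8.67% of all genes. The Vps26a call was lost with median-centred libraries and without any Rag_SPIC_noDOX library or Rag_SPIC_DOX replicate 3 (adjusted p = 0.0743 to 0.163 in limma). With the label in Rag cells 0 rose and 3 fell, beside 28.5% and 25.1% of all genes, and the other 2 were the retriever subunit Dscr3 (-0.52, SE 0.07) and the beta-arrestin Arrb1 (-0.50, SE 0.06). In Art cells 1 rose, Vps26b (0.75, SE 0.14), and 1 fell, Arrdc5, beside 25.0% and 24.1% of all genes.

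The lists that follow are read against the share of all genes in the same fit. Beside the shares above, without Art replicate 3 these were 23.2% higher and 24.2% lower in Art against Rag_SPIC_noDOX, and 40.6% and 39.5% in Art_shBCLAF1 against Art. Without Rag_SPIC_DOX replicate 2 they were 20.0% and 19.6% with doxycycline. With voom they were 26.1% and 27.4% in Art against Rag_SPIC_noDOX, and 30.3% and 32.0% with doxycycline. At an unadjusted p below 0.05 they were 10.3% and 11.4% in Art against Rag_SPIC_noDOX, and 15% and 19.3% with doxycycline. With median-centred libraries they were 22.8% and 27.8% for the label in Rag cells, and 18.7% and 31.2% for the label in Art cells.

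NEDD4-family ligases, the partners through which alpha-arrestins act, had 0 of 9 genes changed in either comparison with Rag_SPIC_noDOX in limma. At an unadjusted p below 0.05 the numbers were 0 higher and 1 lower in Art and 1 higher and 0 lower with doxycycline, and voom called 3 higher and 2 lower, and 3 higher and 1 lower. With Art replicate 3 left out, limma called 1 higher and 2 lower of 9 in Art, beside 23.2% and 24.2% of all genes. Nedd4 rose 2.81-fold in Art_shBCLAF1 against Art (log2 fold change 1.49, SE 0.15, adjusted p = 0.000649 in limma), the only rise of the list there, and Smurf1 fell (-0.70, SE 0.11). In Rag cells with the label 2 rose and 3 fell, and the median over the list was -0.01 beside 0.05 over all genes. Itch, known for its part in T-cell tolerance, fell there by 0.42 (SE 0.08), and Nedd4 rose by 0.22 (SE 0.06), but with median-centred libraries 0 rose and 3 fell. The calls of Smurf1, Smurf2 and Nedd4l were lost without Rag_SPIC_DOX replicate 3 or any one Rag_SPIC_DOX_shBCLAF1 library (adjusted p = 0.0514 to 0.112 in limma). Of 12 genes of the ESCRT machinery, which ARRDC1 uses for vesicle budding, 0 changed in either comparison with Rag_SPIC_noDOX in limma. At an unadjusted p below 0.05, 0 were higher and 1 lower in Art and 2 higher and 2 lower with doxycycline, and voom called 1 and 4 in Art and 4 and 2 with doxycycline. When Art replicate 3 was left out, limma called 1 higher and 4 lower of 12 in Art, beside 23.2% and 24.2% of all genes. Under the label 0 rose and 4 fell in Rag cells, the largest being Stam2 (-0.39, SE 0.08), and 1 rose and 1 fell in Art cells, Mvb12b (0.75, SE 0.12) and Vps37c (-0.39, SE 0.13). The Art numbers were 4 and 5 without Art replicate 3 (40.6% and 39.5% of all genes), and with median-centred libraries 1 and 3. Stam2 and Mvb12b kept their calls without any single library, whereas Stam, Vps4b, Mvb12a and Vps37c did not (adjusted p = 0.0514 to 0.16 in limma).

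MondoA, encoded by Mlxip and known as the driver of Txnip transcription, was measured with its partners and with the MYC and MXD factors that share their network. Mlxip was at 7.79, 7.96 and 7.89 log2 CPM in Art_shBCLAF1 and 10.16, 10.15 and 9.34 in Art. It was at 8.12, 8.11 and 8.13 in Rag_SPIC_DOX_shBCLAF1, 8.73, 9.18 and 8.87 in Rag_SPIC_DOX, and 9.91, 9.62 and 9.79 in Rag_SPIC_noDOX. Art and Rag_SPIC_noDOX overlapped at the top through Art replicate 3 (9.34) alone. Art replicates 1 and 2 (10.16 and 10.15) lay above every Rag_SPIC_noDOX library (highest 9.91). Txnip, in contrast, was low in Art, and any link between the levels of Mlxip and Txnip was not tested. Mlxip fell 1.80-fold with doxycycline (-0.85, SE 0.14, adjusted p = 0.0151 in limma) and 4.02-fold in Art_shBCLAF1 against Art (-2.01, SE 0.24, adjusted p = 0.00111). The call with doxycycline was lost without Rag_SPIC_noDOX replicate 1 or 3 or Rag_SPIC_DOX replicate 3 (adjusted p = 0.0863 to 0.0999). Myc, which competes for the same class of E-box, averaged 8.79 in Art_shBCLAF1, 4.07 in Art, 9.21 in Rag_SPIC_DOX_shBCLAF1, 6.21 in Rag_SPIC_DOX and 5.6 in Rag_SPIC_noDOX. It rose 26.3-fold in Art_shBCLAF1 against Art (4.72, SE 0.14, adjusted p = 3.52e-05 in limma). In Rag_SPIC_DOX the 3 libraries were at 8.06, 3.76 and 6.83 log2 CPM of Myc, beside 7.89, 7.40 and 7.65 of Txnip. The rise of Myc in Rag_SPIC_DOX_shBCLAF1 (3.0, SE 1.0, adjusted p = 0.0419 in limma) was lost without Rag_SPIC_DOX replicate 3 or any one Rag_SPIC_DOX_shBCLAF1 library (adjusted p = 0.0826 to 0.108). Against Rag_SPIC_noDOX, Myc fell in Art by 1.53 log2 units (SE 0.16), the only call of the module there, lost without any one library but Art replicate 3 (adjusted p = 0.0608 to 0.116 in limma). In the fit without Art replicate 3, 2 genes of the module rose and 4 fell in Art, beside 23.2% and 24.2% of all genes. Of 9 genes in the module, 3 rose and 5 fell under the label in Rag cells, with Mxd1 (-1.26, SE 0.12), Mxi1 (-0.92, SE 0.09) and Mxd3 (-0.91, SE 0.14) among the falls. In Art cells 3 rose and 3 fell, and 1 rose and 3 fell when libraries were centred on their medians.

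The thioredoxin system, with which TXNIP interacts, had the largest median difference of the 8 pathway lists, marker lists not counted. In Art_shBCLAF1 against Art 9 of 13 genes rose and 0 fell, with a median of 1.32 log2 units beside 0.05 over all genes, and without Art replicate 3, 12 of 13 rose, where 40.6% of all genes did. The thioredoxin reductase Txnrd3 rose 11.4-fold (3.51, SE 0.14, adjusted p = 5.68e-05 in limma), thioredoxin itself (Txn1) 4.04-fold (2.01, SE 0.14), and the peroxiredoxins Prdx6 and Prdx1 by 1.97 (SE 0.12) and 1.76 (SE 0.20) log2 units. In Rag_SPIC_DOX_shBCLAF1 5 of 13 rose and 1 fell, with a median of 0.55. Txnrd3 rose there by 2.19 (SE 0.45) and Txnrd1 by 1.62 (SE 0.23), whereas glutaredoxin, Glrx, fell by 0.97 (SE 0.06). Prdx6 rose by 0.93 (SE 0.32), a call lost without Rag_SPIC_DOX replicate 3 or any one Rag_SPIC_DOX_shBCLAF1 library (adjusted p = 0.106 to 0.118 in limma). Against Rag_SPIC_noDOX 0 of 13 changed in Art and 0 of 13 with doxycycline in limma. At an unadjusted p below 0.05, 0 were higher and 4 lower in Art and 5 higher and 0 lower with doxycycline, and voom called 0 and 8 in Art and 8 and 1 with doxycycline. Without Art replicate 3, 0 rose and 9 fell in Art, beside 23.2% and 24.2% of all genes, and without Rag_SPIC_DOX replicate 2, 8 rose and 0 fell with doxycycline, beside 20.0% and 19.6%. Txnip itself differed by -0.01 and -0.17 under the label in the 2 lines.

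Glucose transporters and hexokinases, through which TXNIP is known to limit glucose use, had 1 of 7 genes lower in each comparison with Rag_SPIC_noDOX. These were the urate carrier Slc2a9 in Art (-0.61, SE 0.10) and Slc2a6 with doxycycline (-0.57, SE 0.10). The Slc2a9 call was lost without any one of 5 of the 6 libraries (adjusted p = 0.0957 to 0.168 in limma), and the Slc2a6 call without Rag_SPIC_noDOX replicate 1 or 3 or Rag_SPIC_DOX replicate 3 (adjusted p = 0.0917 to 0.11). In the fit without Art replicate 3, 2 rose and 2 fell in Art, beside 23.2% and 24.2% of all genes. In Art_shBCLAF1 against Art 3 rose and 2 fell (2 and 2 with median-centred libraries). Hexokinase 2 (Hk2) rose 9.72-fold (3.28, SE 0.31, adjusted p = 0.000484 in limma) and the transporter Slc2a1 4.15-fold (2.05, SE 0.25), and Slc2a6 fell by 1.65 (SE 0.24). In Rag_SPIC_DOX_shBCLAF1 0 rose and 3 fell, with Slc2a9 at -0.67 (SE 0.13) and Slc2a6 at -0.49 (SE 0.07). Hk2 (1.34, SE 0.75) and Slc2a1 (0.14, SE 0.54) were higher there in the mean but were not called. Hk1 fell there by 0.24 (SE 0.07), a call lost without Rag_SPIC_DOX replicate 3 or any one Rag_SPIC_DOX_shBCLAF1 library (adjusted p = 0.0662 to 0.108). Without Rag_SPIC_DOX replicate 2, 3 rose and 2 fell with doxycycline, beside 20.0% and 19.6% of all genes.

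Ddit4, a stress-induced inhibitor of mTORC1, was like Txnip in being highest in Rag_SPIC_noDOX. It was at 8.22, 7.96 and 8.18 log2 CPM in Art_shBCLAF1 and 7.49, 7.51 and 8.13 in Art. It was at 7.86, 7.74 and 7.65 in Rag_SPIC_DOX_shBCLAF1, 7.74, 7.76 and 7.86 in Rag_SPIC_DOX, and 8.91, 8.74 and 8.83 in Rag_SPIC_noDOX. Rag_SPIC_noDOX again stood above all other libraries, by a gap of 0.52 (position 30). In Art_shBCLAF1 against Art, Ddit4 was higher by 0.41 (SE 0.20, not called in limma), whereas Txnip differed by -0.01. Art replicates 1 and 2 (7.49 and 7.51) lay below every Art_shBCLAF1 library (lowest 7.96) for Ddit4. Only Art replicate 3 (8.13) overlapped with that group. Ddit4 fell 2.05-fold with doxycycline (-1.03, SE 0.08, adjusted p = 0.00331 in limma) and 2.16-fold in Art (-1.11, SE 0.20, adjusted p = 0.0314). The second call was lost without any one of 5 of the 6 libraries (adjusted p = 0.109 to 0.172) and with median-centred libraries (adjusted p = 0.0532). Of the 8 genes of the AMP-activated kinase list, which holds Ddit4, 1 fell in Art and 2 with doxycycline, the second being Prkab2 (-0.49, SE 0.11). The Prkab2 call was lost without any Rag_SPIC_noDOX library or Rag_SPIC_DOX replicate 3 (adjusted p = 0.0614 to 0.158 in limma). AMPK phosphorylates TXNIP, and its catalytic subunit gene Prkaa2 rose with the label in both lines, by 2.21 (SE 0.30) in Art cells and 0.96 (SE 0.11) in Rag cells. In all 1 of 8 rose and 0 fell in Art cells, and 4 rose and 0 fell in Rag cells. The Art numbers without Art replicate 3 were 5 and 3, beside 40.6% and 39.5% of all genes.

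FOXO-linked quiescence genes were followed because FOXO factors are active when kinase signalling is low and because the Txnip promoter holds a FOXO-type site. In Rag_SPIC_DOX_shBCLAF1 1 of 15 rose and 12 fell, with a median of -0.70 beside 0.05 over all genes. The antiproliferative gene Btg2 fell by 1.47 (SE 0.15, adjusted p = 0.00079 in limma), the interleukin-7 receptor Il7r by 1.21 (SE 0.16) and the cyclin Ccng2 by 1.04 (SE 0.11). Sesn3, a stress-induced inhibitor of mTORC1, fell by 0.99 (SE 0.11). In Art_shBCLAF1 1 rose and 8 fell, with a median of -0.67, and without Art replicate 3 the numbers were 2 and 13, beside 40.6% and 39.5% of all genes. Irs2, an insulin receptor substrate, fell there by 1.27 (SE 0.12) and Pik3ip1, an inhibitor of PI3K, changed by -1.22 (SE 0.18), whereas Klf2, a transcription factor of quiescent lymphocytes, rose by 1.04 (SE 0.24). The Klf2 call was lost without Art_shBCLAF1 replicate 1 or 3 (adjusted p = 0.0504 in limma without either). Btg2 fell by 1.51 (SE 0.35, adjusted p = 0.0129 in limma), a call lost without Art_shBCLAF1 replicate 1 or 3 (adjusted p = 0.0522 to 0.0532). In the 2 comparisons with Rag_SPIC_noDOX 0 of 15 changed in limma, with medians of -0.23 in Art and -0.07 with doxycycline. Without Art replicate 3, 2 rose and 5 fell in Art, beside 23.2% and 24.2% of all genes. Without Rag_SPIC_DOX replicate 2, 0 rose and 3 fell with doxycycline, beside 20.0% and 19.6%, so the share that fell was near the background. At an unadjusted p below 0.05, 1 was higher and 1 lower in Art and 0 higher and 2 lower with doxycycline, and voom called 2 and 5 in Art and 4 and 3 with doxycycline. Il7r is also on the B-lineage marker list, whose summed level was 7149 to 7422 CPM in Rag_SPIC_DOX_shBCLAF1 and 8343 to 12330 in Rag_SPIC_DOX. Of the 12 B-lineage genes 2 were higher and 5 lower in limma, with a median of -0.17. Without Rag_SPIC_DOX replicate 2 the numbers were 4 and 5, with a median of -0.02, beside 30.6% higher and 25.6% lower of all genes. The summed myeloid markers were 45.65 to 48.74 CPM in Rag_SPIC_DOX_shBCLAF1 and 208.5 to 272.6 in Rag_SPIC_DOX, and the part of either in these falls was not tested.

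**Figure D4:**
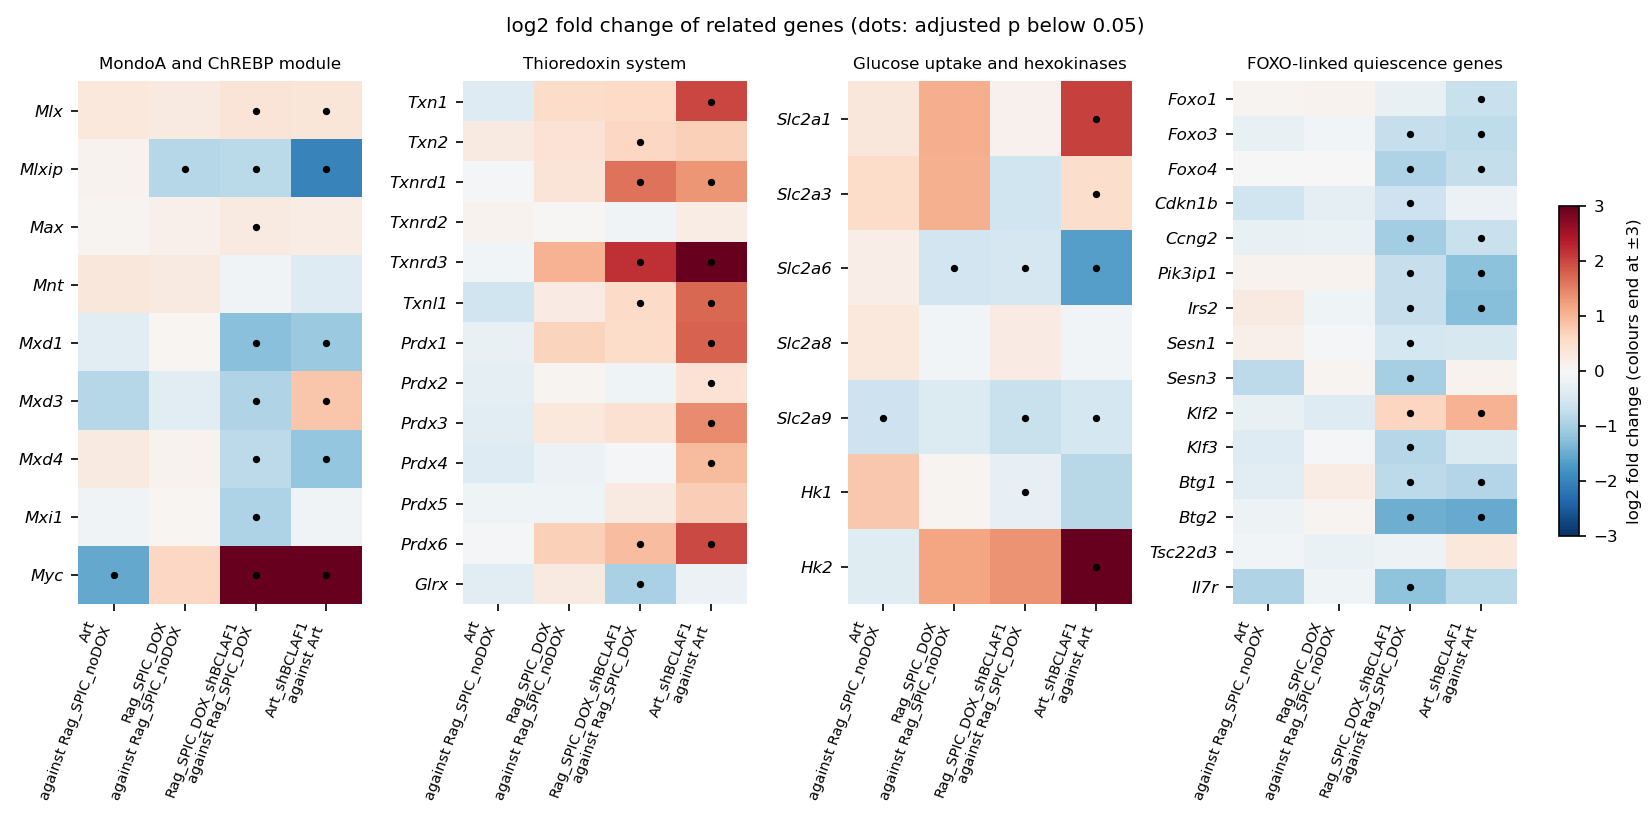
Log2 fold changes of 4 gene lists in the 4 comparisons (columns), with red for higher and blue for lower in the group named first; dots mark an adjusted p below 0.05 in limma, and colours end at ±3. The right-hand columns of the thioredoxin list are mostly red (9 of 13 rose in Art_shBCLAF1 against Art) and the third column of the FOXO-linked list mostly blue (12 of 15 fell).

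Between the 2 lines, the effect of the label differed for 14.3% of all genes in the higher direction in Art cells and for 17.0% in the lower. In the thioredoxin list 7 of 13 genes differed, all in the higher direction, with Txn1 (1.41, SE 0.33) and Prdx1 (1.21, SE 0.31) first. In the FOXO-linked list 2 of 15 differed in the higher direction and 1 in the lower. With median-centred libraries the numbers were 0 and 1, beside 11.5% and 19.3% of all genes.

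Across the 15 libraries, the level of Txnip followed that of Arrdc3 most closely among the alpha-arrestins, with a Pearson correlation of 0.958, against 0.35 with Arrdc1 and 0.05 with Arrdc2. Among the 5773 genes of above-median expression outside the family, those most like Txnip were Ddit4 (0.865), Dab2ip (0.864), Troap (0.858), Tet2 (0.851) and Arhgap33 (0.824). Those most like Arrdc3 were Tet2 (0.912), Troap (0.904), Zbtb21 (0.898), Wsb1 (0.895) and Pdcl (0.894). Tet2, an enzyme that oxidises methylcytosine, averaged 6.37 log2 CPM in Art_shBCLAF1, 6.53 in Art, 6.26 in Rag_SPIC_DOX_shBCLAF1, 6.43 in Rag_SPIC_DOX and 6.90 in Rag_SPIC_noDOX. The 15 points share groups, the Rag_SPIC_noDOX libraries form a cluster of their own for Txnip and Arrdc3, and the part of that cluster in these correlations was not tested. They are given without a p.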

How the data were processed

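The authors deposited 4 tables of log2 CPM (reads plus 0.5, scaled to library size) for all 15 libraries, each listing only genes with an authors' adjusted p of at most 0.0499 in its own comparison, so that genes the authors called in no comparison are not part of the shares given of all genes. Their tables also hold the authors' log2 fold changes and p-values, which were not used here for any result. The submitters' processing notes name limma, edgeR, featureCounts 1.4.5, Subread and the build mm9, and give them no role or order. The sources used here do not state strand use. The tables were joined by gene ID into 11551 genes after merging 152 duplicate rows, and shared values differed by 0.0. Of the deposited log2 values below 1000 reads, 100.0% returned to whole reads within 0.05. One column name differs from the label of Art replicate 3 by 1 character and was matched to it. Genes in none of the tables were not analysed here, and 1 gene of the lists is not reported here.

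For each comparison, limma 3.58.1 (R 4.3.3) was run on its 6 libraries, with the trend option and Benjamini-Hochberg adjustment over all genes. The label effects of the 2 lines were compared by an interaction over 12 libraries. All tests were two-sided. The limma fits of the 4 comparisons were tested on simulated data first, whereas the interaction and the alternatives were not. A difference is the group named first minus the second. The alpha-arrestins and the gene lists were chosen with earlier results of these data known. Named genes were up to 4 called genes with the largest change per list and comparison. Levels per length used merged GENCODE M21 exons, available for 99.9% of genes. Gene positions are from GENCODE on GRCm38, not the build of the counts. Alternatives were all 15 libraries in one fit, array weights, median centring, a replicate block, 2 added reads, a minimum mean log2 CPM of 1, no trend, voom with quality weights on recovered reads, and each library left out. Counts without the 2 distant libraries were added after seeing the data.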

Additional observations from a re-analysis of the deposited data

Results flagged for a closer look

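The effect of the shBCLAF1 label differed between Art and Rag_SPIC_DOX cells, by an interaction term in limma, for the 19 genes given here. Only called genes were named, up to 4 per list, so their number follows from that rule and is not a result. Over all genes, 14.3% differed in the higher direction and 17.0% in the lower. The values are the log2 effect in Art cells minus that in Rag_SPIC_DOX cells. Among arrestin-fold relatives and NEDD4-family ligases, the difference was -5.185 for Arrdc5, -1.657 for Sag, 0.908 for Vps26b and 1.264 for Nedd4. In the MondoA module it was 1.742 for Mxd3, -1.197 for Mlxip and 0.82 for Mxi1. In the thioredoxin system it was 1.412 for Txn1, 1.208 for Prdx1, 1.141 for Txnl1 and 0.985 for Prdx4. Among the glucose and AMP-activated kinase genes it was 1.915 for Slc2a1, -1.155 for Slc2a6, 1.246 for Prkaa2 and -0.773 for Prkab2. In the ESCRT and FOXO-linked lists it was 0.688 for Mvb12b, 1.083 for Sesn3, -0.566 for Irs2 and 0.472 for Tsc22d3. The calls of Sag, Slc2a1, Sesn3, Tsc22d3, Prkab2 and Txnl1 were lost when single libraries were left out, with adjusted p between 0.0505 and 0.105 in those limma fits. In Art_shBCLAF1, Arrdc5 had 0 to 4 reads per library and Sag 12 to 17. The sizes of their differences (SE 1.041 for Arrdc5 and 0.576 for Sag) are therefore poorly fixed.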

How the results depend on the processing

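Over 14 alternatives per comparison and 20 for the interaction, 293 of the differences of the alpha-arrestins moved by less than the spread between replicates and 11 moved by more. One fit over all 15 libraries, a replicate block, no trend and a minimum level cannot move a difference of group means, so those fits were bound to count among the 293. The spread also took in Art replicate 3. The change of Arrdc2 in Art against Rag_SPIC_noDOX, from 0.58 to 0.10 without that library, therefore counted as less than the spread. Txnip stayed between -1.18 and -1.10 in Art against Rag_SPIC_noDOX and between -1.32 and -1.07 with doxycycline, and Arrdc3 between -1.99 and -1.71 and between -1.97 and -1.87. Arrdc2 in Rag_SPIC_DOX_shBCLAF1 ranged from -0.09 to 0.07, and Txnip in Art_shBCLAF1 from -0.24 to 0.01, on both sides of 0. For the named genes, 1061 gene-by-alternative fits kept the call and 183 lost it, and none of these fits reversed a call.

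Counts of changed genes moved more. In Art against Rag_SPIC_noDOX 594 genes changed, but 1957 with all 15 libraries in one fit, 6547 with array weights, 6182 with voom and 0 to 5473 with 1 library left out, the highest without Art replicate 3. With doxycycline 1367 changed, but 8589 with array weights, 7192 with voom and 12 to 4569 with 1 library left out, the highest without Rag_SPIC_DOX replicate 2. In Rag_SPIC_DOX_shBCLAF1 6186 changed, 10078 with array weights and 3945 to 7576 with 1 library left out. In Art_shBCLAF1 5664 changed, 9839 with array weights, 9709 with voom and 3740 to 9252 with 1 library left out. For the interaction 3621 differed, 9159 with array weights, 8602 with voom and 2674 to 6286 with 1 library left out. The share of higher genes in Art_shBCLAF1 was 50.9%, and 37.5% with median-centred libraries. The causes were not tested.

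Same-numbered libraries did not deviate together (correlations of -0.234, 0.2 and -0.068 in Art against Rag_SPIC_noDOX). Such correlations, from groups of 3 libraries, cannot exclude that the numbers pair libraries, and no label says so. With a replicate block 0 genes changed in Art against Rag_SPIC_noDOX in limma, with 1902 at an unadjusted p below 0.05, and 150 with doxycycline, 5171 in Rag_SPIC_DOX_shBCLAF1, 4779 in Art_shBCLAF1 and 3395 for the interaction. The low depth of Art replicate 3 limits Arrdc3 and Arrdc2 there most, with 110 and 308 reads.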
